A study of Arabidopsis thaliana with 8 samples.

Results

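Wild-type Arabidopsis embryos from Q0990 plants pollinated with Col-0, here Q0990 x Col, were compared between day 6 and day 3. Q0990, a GAL4 enhancer trap line whose driver acts in the young vascular cells of the embryo, was the seed parent, and the pollen came from wild-type Col-0, so every embryo of both days carried the Q0990 insertion. The labels name no further transgene in this cross. Each of the 8 arrays of the study held 2 labelled RNA samples, one from Q0990 x bdl embryos and one from Q0990 x Col embryos. The Q0990 x Col channel alone was used, which gives 8 of the 16 channel signals, 4 from arrays titled day 3 and 4 from arrays titled day 6. Embryos were isolated 3 or 6 days after pollination, per the labels, and the series text gives those days relative to fertilization. Plants of both days grew in long days. The RNA was amplified before labelling, and the labels give neither the embryo stage nor how many embryos made up a sample. The series text names 4 biological replicates for each experiment, and p-values here measure the spread between these 4 arrays per day.

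After fertilization the Arabidopsis embryo sets up its body plan while still a small ball of cells, with a root pole, a shoot pole, paired cotyledons, vascular and ground tissue and an epidermis. The embryo then greens, and the transcription factors LEC1, LEC2, FUS3 and ABI3 direct maturation, in which albumins, globulins and oil are stored. Endosperm and seed coat surround the embryo, and they feed it and protect it.

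Levels below are log2(intensity + 50) after quantile normalization, differences are day 6 minus day 3 on that log2 scale, and an array's values are listed in the order of replicates 1 to 4. This scale understates the change of dim genes. Where no more than 2 arrays of the dimmer day exceeded the blank spots, the log2 difference is given without a fold, because the dim level is then largely background. Median intensities were 333 to 519 on day 3, against 230 to 451 on day 6. Levels correlated across genes at r = 0.912 to 0.969 between day 3 arrays, 0.859 to 0.963 between day 6 arrays and 0.742 to 0.825 between arrays of different days. Day 6 replicate 1 correlated with the other day 6 arrays at r = 0.859 to 0.906, and these correlated with each other at 0.904 to 0.963. The median gene had an SD of 0.315 over the day 3 arrays and 0.419 over the day 6 arrays. No array held both days, so that array batch and day cannot be told apart.

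Of 17167 genes tested with limma, 3433 (20.0%) were called, that is, they differed at an adjusted p under 0.05 and by at least 2-fold. They divided into 1657 genes higher on day 6 (9.65%) and 1776 lower (10.3%), and the median difference of all genes was 0.02. At the adjusted p alone, 2071 genes were higher (12.1%) and 2137 lower (12.4%). Arrays of the days did not overlap for 2582 genes higher on day 6 and 2598 lower, called or not. Lack of overlap, given for single genes below, was therefore common. Changes of at least 4-fold comprised 404 rises (2.35%) and 576 falls (3.36%), and changes of at least 16-fold 43 rises (0.250%) and 124 falls (0.722%). The call counts were 3694 without day 6 replicate 1 and 3394 without day 3 replicate 2. With arrays set level by 6 reference transcripts in place of quantiles, the median gene moved to -0.25, and 417 genes were called higher and 1093 lower, so the balance of rises and falls depends on the scaling. A gene could enter by exceeding the blank spots on 4 of 8 arrays, which a gene bright on 1 day only can meet. Among 9847 genes with reporters above the blank spots on all 8 arrays, 1273 were called higher and 739 lower. These counts are the background for list counts limited to such genes below.

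**Figure D1:**
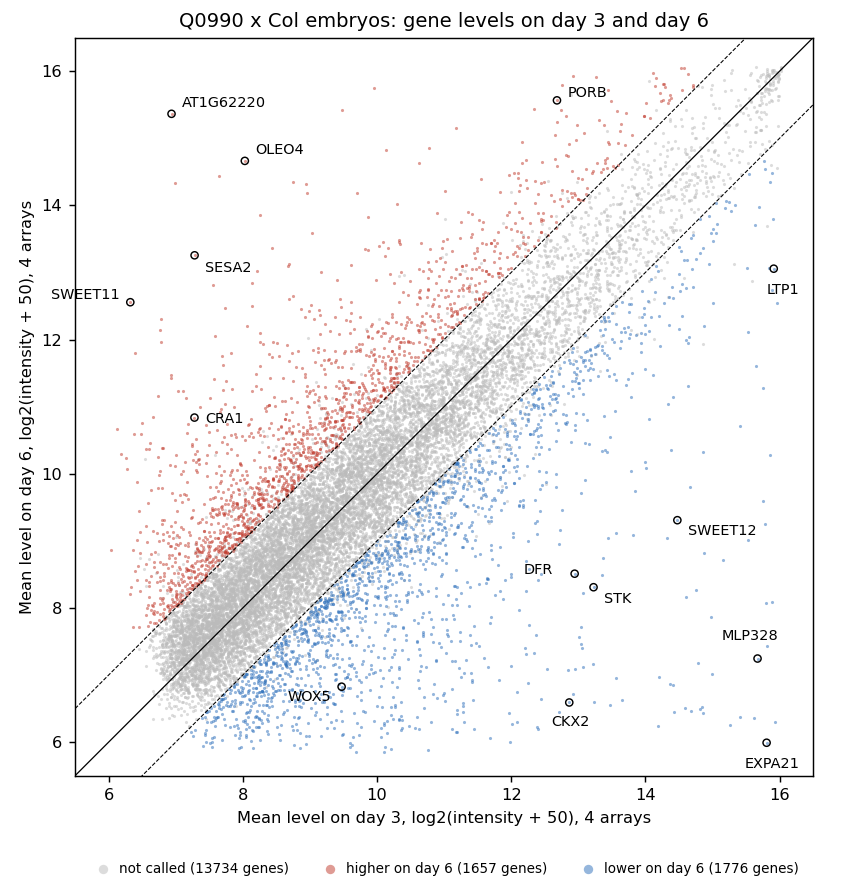
Mean level of each tested gene on day 3 (horizontal axis) and day 6 (vertical axis), both as log2(intensity + 50) over 4 arrays. The solid line marks equal levels and the dashed lines a 2-fold difference; the 1657 genes called higher on day 6 are red, the 1776 called lower are blue, and 14 genes described in the text are circled.

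The samples were checked against markers of the embryo and of the tissues around it. Of 10 embryo markers 8 were tested. Each of the 8 exceeded the blank spots on all 4 day 3 arrays, and 5 on all 4 day 6 arrays. The filter itself asks for 4 of 8 arrays above the blank spots, so the day 3 count is partly set by it. WOX2 and WOX9, not tested, had day 6 values only, above the blank spots on 0 and 2 of 4 arrays. LEC1, a maturation regulator of the young embryo, was bright on both days, at 13.31 to 14.30 on day 3 and 12.60 to 13.55 on day 6. Markers of endosperm and seed coat were present as well. Of 6 tested endosperm markers, 5 exceeded the blank spots on all 4 day 3 arrays and 1 on all 4 day 6 arrays. Of 9 tested seed coat markers the counts were 7 and 6. The summed normalized intensity of 9 tested seed coat markers was 71787 to 96411 on day 3, against 10487 to 12133 on day 6, and 7 of the 9 fell, 1 rose (MUM4) and 1 was not called. Summed intensities of 6 tested endosperm markers were 4827 to 6520 on day 3 and 1480 to 3959 on day 6, with 2 of the 6 lower and none higher. The 8 embryo markers summed to 19221 to 27804 on day 3 and 11764 to 17618 on day 6, with 1 higher and 2 lower. No tested marker of these tissues was below the blank spots on all 4 arrays of a day. Fewer cells of a type and less RNA per cell cannot be told apart in such bulk samples. The part of these surrounding tissues in the differences below was not tested.

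**Figure D2:**
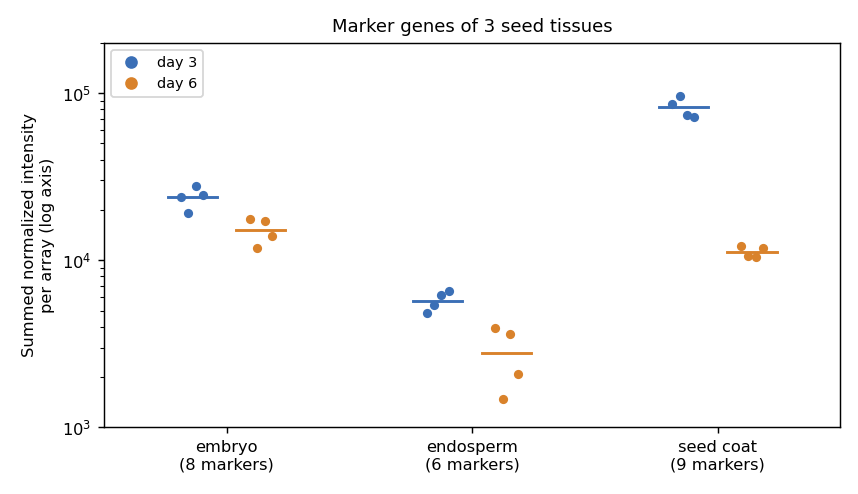
Summed normalized intensity of the tested markers of embryo, endosperm and seed coat on each array (log axis; points are arrays, lines are means of 4). Seed coat sums lay at 71787 to 96411 on day 3 and at 10487 to 12133 on day 6; sums of different tissues rest on different reporters and are not compared with each other.

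Reserve genes rose most among the 27 gene lists. All 4 tested oil body genes were called higher, with a median of 4.98, and 5 of 7 tested storage protein genes, with a median of 3.07. The oleosins coat the oil bodies of the seed. OLEO4 had levels of 7.96, 8.15, 8.05 and 7.96 on day 3, then 14.23, 14.70, 14.99 and 14.73 on day 6. All day 6 arrays lay far above all day 3 arrays, and the difference of 6.63 ± 0.237 (SE) is a 99.3-fold rise (adjusted p = 1.13e-07). OLEO1 rose 20.6-fold (difference 4.36 ± 0.235 SE) and OLEO2 15.8-fold (3.98 ± 0.287 SE). OLEO3 was uneven, at 7.94, 9.16, 7.44 and 8.49 on day 3 against 8.76, 15.60, 15.45 and 15.62 on day 6. Its first day 6 array lay within the day 3 range, and the difference of 5.60 ± 1.31 (SE) passed with an adjusted p of 0.0129. It became 7.36 when day 6 replicate 1 was left out and 4.63 for day 6 replicate 2. Values for day 3 replicates 2 and 3 lay between these and moved the fold by over 1.5 times, and without day 6 replicate 3 the call ended (5.24, adjusted p = 0.0546). A further oleosin by the file's description, AT3G01570, rose 111-fold (6.79 ± 0.277 SE).

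Among the 2S albumins, small sulphur-rich storage proteins, SESA2 had levels of 7.28, 7.10, 7.23 and 7.51 on day 3, then 12.98, 13.23, 13.57 and 13.24 on day 6. The days did not overlap, and the rise was 62.9-fold (5.98 ± 0.224 SE, adjusted p = 1.37e-07). SESA3 rose 28.1-fold (4.82 ± 0.239 SE) and SESA4 2.68-fold (1.42 ± 0.256 SE). The 12S globulin gene CRA1 read 7.24, 8.16, 6.85 and 6.86 on day 3, then 11.09, 11.49, 9.70 and 11.07 on day 6, an 11.8-fold rise (3.56 ± 0.342 SE, adjusted p = 7.23e-05). The globulin genes did not move alike: CRU2 differed by 0.11 (95% interval -0.46 to 0.67, adjusted p = 0.793) and CRU3 by 0.05 (adjusted p = 0.908). CRU2 exceeded the blank spots on 1 of the 4 day 6 arrays and CRU3 on 2, so their day 6 levels are largely background. BETA-VPE, a protease that cuts storage proteins into their mature form, rose 8.42-fold (3.07 ± 0.282 SE). TIP3;1, an aquaporin of the storage vacuole membrane, rose 5.19-fold (2.38 ± 0.253 SE), 1 of 3 tonoplast aquaporins called. The call of SESA4 ended with the reference transcript scaling (1.16).

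Regulators of maturation were mixed. Of 16 tested, 4 rose and none fell, with a list median of -0.03 whose sign turned with the scaling (0.10 with 75th percentiles set equal, -0.23 with reference transcripts). ABI3, the B3 factor of maturation, had levels of 10.18, 10.84, 9.81 and 10.07 on day 3, then 12.23, 12.38, 12.38 and 12.36 on day 6. Each day 6 array was higher than each day 3 array, and the rise was 4.32-fold (2.11 ± 0.257 SE, adjusted p = 0.000336). ABI4, an AP2 factor of abscisic acid signalling, rose 4.48-fold (2.16 ± 0.235 SE) and EEL, a bZIP factor of late embryo genes, 4.57-fold (2.19 ± 0.304 SE). FUS3, another B3 factor, rose 2.24-fold (1.16 ± 0.274 SE, adjusted p = 0.0131), a call that ended without day 3 replicate 3 (1.09) or day 6 replicate 1 (0.99) and with reference transcripts (0.82).

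The remaining regulators were not called. LEC1 differed by -0.81 ± 0.295 (SE, adjusted p = 0.0743) with overlapping arrays, and was called lower with array medians set equal (-1.07). LEC2 differed by 0.04 (adjusted p = 0.932), its day 6 values of 8.63 to 9.53 overlapping those of day 3. L1L, a LEC1-like gene, differed by 0.92 (adjusted p = 0.0477), under the 2-fold limit, and was called without day 3 replicate 2 (1.17) or day 6 replicate 2 (1.06). WRI1, which switches on fatty acid synthesis, differed by 0.35 (adjusted p = 0.618) and ranged from 10.60 to 12.93 over the day 6 arrays. ABI5, the abscisic acid factor of late maturation, differed by -0.09 (adjusted p = 0.844) and exceeded the blank spots on 1 of 4 day 6 arrays. ASIL1 and HSI2, repressors of embryo genes, differed by -0.66 and -0.48, and ASIL1 was called lower without day 6 replicate 1 (-1.09). The bZIP genes BZIP25, BZIP53 and BZIP67, which act on storage promoters, differed by -0.28, -0.13 and -0.45, the embryo MADS gene AGL15 by -0.31 and MYB115 by 0.27. BZIP67 stayed within the blank range on every day 6 array, and MYB115 exceeded the blank spots on 1 of 4.

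**Figure D3:**
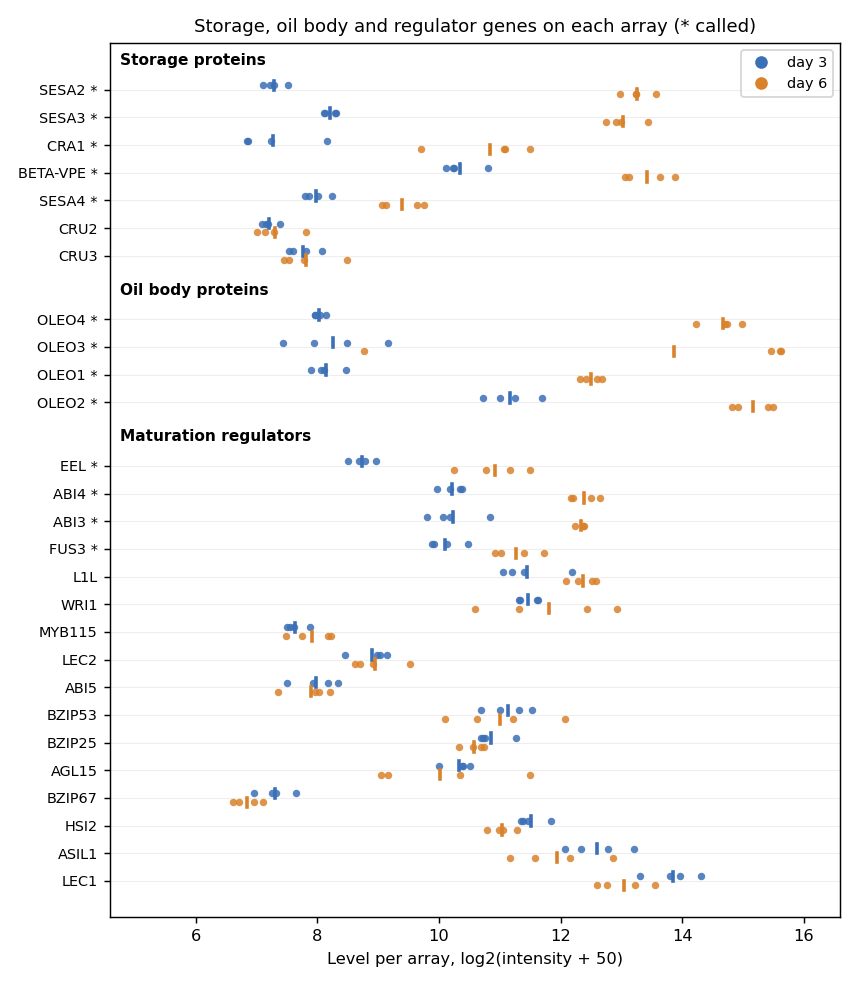
Level of each tested storage protein, oil body and maturation regulator gene on each array, as log2(intensity + 50); points are arrays, ticks are means of 4, and an asterisk marks a called gene. OLEO4 moved from about 8.15 or less on day 3 to 14.23 or more on day 6, while LEC2 and CRU2 overlapped between the days, and 1 day 6 array of OLEO3 lay at 8.76.

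Late embryogenesis abundant genes, which protect the drying seed, were mostly dim. Of 11 genes, 4 were tested and 1 rose, the dehydrin XERO1 at 2.17-fold (1.12 ± 0.275 SE, adjusted p = 0.0160). That call ended without day 3 replicate 1 (1.03) or 3 (1.00) or day 6 replicate 1 (0.99) and with reference transcripts (0.76). The dehydrin RAB18 differed by -0.27 (adjusted p = 0.584). A further 4 of the 11 were too dim on both days to test.

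Oil synthesis genes were higher on day 6 in 17 of 26 tested cases, with none lower and a median of 1.49. LPD1, a subunit of the plastid pyruvate dehydrogenase that supplies acetyl-CoA, had levels of 11.38, 7.02, 10.93 and 11.14 on day 3, then 14.01, 13.16, 12.97 and 12.84 on day 6. All day 6 values lay higher, but day 3 replicate 2 lay far below its group, so the rise was 8.74-fold (3.13 ± 0.848 SE, adjusted p = 0.0249) and 4.01-fold without that array (2.00). LPD1 gave 3.75 without day 3 replicate 1, and its call ended without day 6 replicate 1 (2.71) or 3 (3.35) and with reference transcripts (2.75). Other genes of the same plastid route varied less between arrays and were picked after their values were seen. KAS III, which starts fatty acid chains, rose 6.38-fold (2.67 ± 0.293 SE), the acetyl-CoA carboxylase subunit gene BCCP2 6.00-fold (2.58 ± 0.269 SE) and the pyruvate dehydrogenase subunit gene LTA2 4.85-fold (2.28 ± 0.354 SE). ROD1, which passes membrane lipid into storage oil, rose 6.76-fold (2.76 ± 0.786 SE, adjusted p = 0.0303), with day 6 replicate 1 at 7.28 inside the day 3 range. ROD1 gave 3.70 without that array and 2.16, not called, without day 3 replicate 3, and its call also ended without 5 of the other 6 arrays, with reference transcripts (2.37) and when both channels were modelled together (2.78). Of the last steps of oil assembly, TAG1 (0.20) and PDAT (-0.43) were not called. With reference transcripts 4 of the 26 genes were called higher, beside 417 of all 17167 genes under that scaling.

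Photosynthesis genes rose together. Of 38 tested genes of light harvesting and the photosystems, 28 were called higher and none lower, with a median of 1.55, and 27 of 35 when only genes above the blank spots on all 8 arrays entered. The plastocyanin gene PETE1, an electron carrier between the photosystems, had levels of 9.58, 10.57, 10.19 and 10.03 on day 3, then 13.88, 13.01, 13.78 and 13.17 on day 6. The days were well apart, and the rise was 10.3-fold (3.37 ± 0.312 SE, adjusted p = 5.78e-05). PSAO, a photosystem I subunit gene, rose from 12.42, 13.54, 12.63 and 13.11 to 15.92, 15.88, 15.90 and 16.01, where the brightest genes of the arrays lie (3.00 ± 0.286 SE, adjusted p = 6.89e-05). The light harvesting gene LHCB2.1 rose 7.37-fold (2.88 ± 0.394 SE) and PSBO2, of the oxygen-evolving complex, 7.11-fold (2.83 ± 0.280 SE), both picked after their values were seen. At the low end, CAB1 and CAB3, close copies among the light harvesting genes, differed by 0.13 and 0.41 and were not called.

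Of 16 tested genes of carbon fixation and chlorophyll synthesis, 7 rose and 1 fell, with a median of 1.14. PORB, which makes chlorophyllide in the light, stood at 12.93, 12.33, 12.75 and 12.72 on day 3, then 15.21, 15.80, 15.80 and 15.45 on day 6. That is a 7.38-fold rise with no overlap (2.88 ± 0.253 SE, adjusted p = 3.80e-05). PORC, a second enzyme of this step, rose 4.54-fold (2.18 ± 0.486 SE, adjusted p = 0.0102). Among the small subunit genes of Rubisco, RBCS2B was lower by a log2 difference of -2.53 ± 0.390 (SE, adjusted p = 0.00142) and exceeded the blank spots on 2 of 4 day 6 arrays, whereas RBCS3B rose 2.34-fold (1.22 ± 0.246 SE) and RBCS1A and RBCS1B differed by 0.67 and 0.69 without a call. Whether reporters of such near-identical copies tell them apart was not tested. GLK1, a factor that activates chloroplast genes, rose 2.90-fold (1.54 ± 0.272 SE), and its relative GLK2 differed by -0.72. With reference transcripts the counts were 10 higher of the 38 photosystem genes and 1 of the 16 others, beside 417 of all 17167 genes. The call of PORC ended under that scaling (adjusted p = 0.0781).

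**Figure D4:**
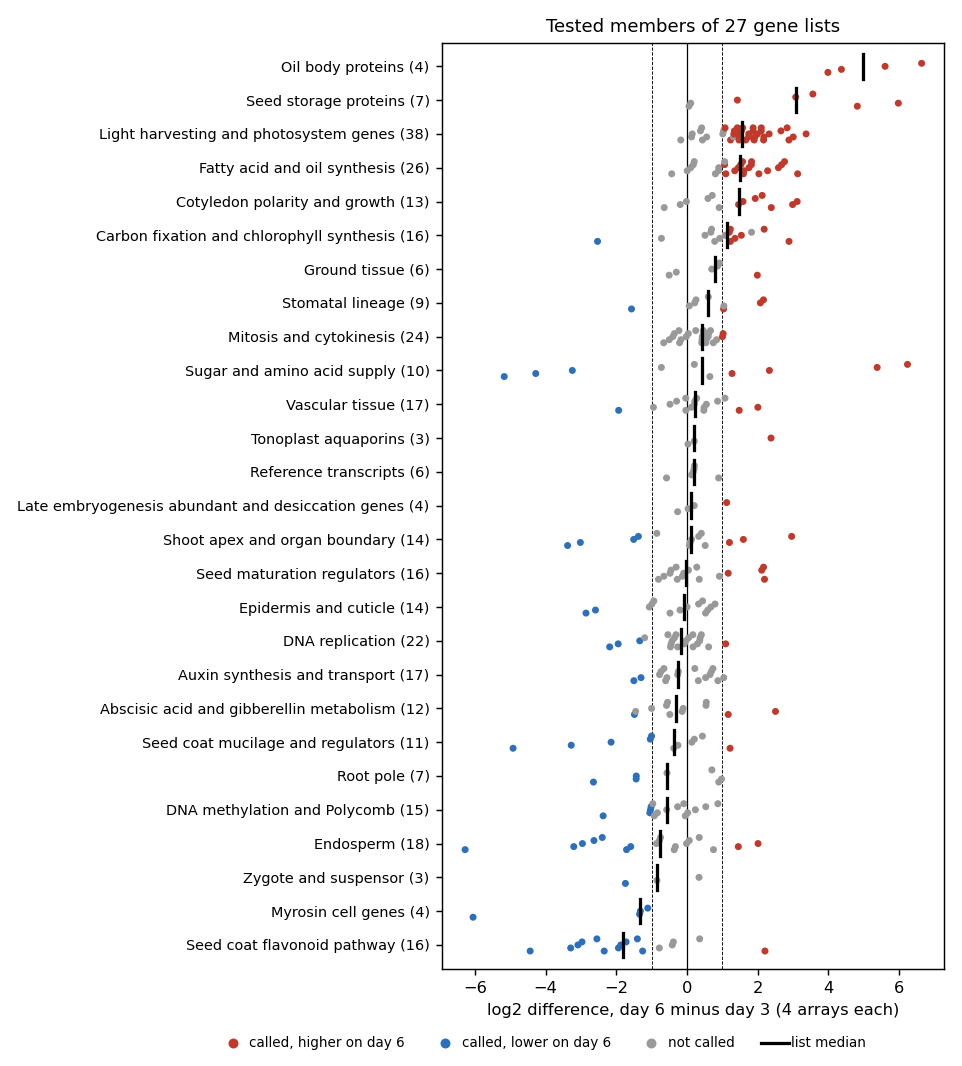
Difference between day 6 and day 3 (log2) of every tested member of 27 gene lists, with the number tested in parentheses; red and blue points are called genes, black bars are list medians, and dashed lines mark a 2-fold difference. Medians run from -1.80 for the seed coat flavonoid pathway to 4.98 for the oil body proteins, beside 0.02 for all genes.

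Seed coat genes fell. Of 16 tested genes of the flavonoid pathway, which makes the tannins of the seed coat, 11 were lower, 1 was higher and the median was -1.80, and 6 of the 9 above the blank spots on all 8 arrays were lower. DFR, an enzyme of the shared flavonoid route, had levels of 13.14, 12.80, 12.85 and 12.99 on day 3, then 8.78, 8.60, 7.91 and 8.75 on day 6. The groups were separated by several log2 units, and the fall was 21.6-fold (-4.44 ± 0.260 SE, adjusted p = 2.68e-06). BAN, which commits the route to tannins, fell 9.78-fold (-3.29 ± 0.330 SE, adjusted p = 9.62e-05). TT4, the entry enzyme chalcone synthase, fell 5.07-fold (-2.34 ± 0.254 SE). TT10, a laccase that browns the tannins late in seed coat life, went the other way and rose from a mean of 6.81 to 9.02 (adjusted p = 0.000907), above the blank spots on 2 of 4 day 3 arrays and on all 4 of day 6. Of the regulators TT8 and TTG1, which activate BAN, the differences were -0.39 and 0.36 and neither was called, whereas their partner TT2 fell 2.65-fold (-1.40 ± 0.272 SE).

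Of 11 tested genes of seed coat mucilage and regulation, 5 fell and 1 rose. STK, a MADS gene of ovule identity, had levels of 12.65, 13.70, 13.25 and 13.32 on day 3, then 8.39, 8.17, 8.35 and 8.33 on day 6. It fell 30.3-fold (-4.92 ± 0.268 SE, adjusted p = 1.73e-06), and its 3 reporters ranged from -5.07 to -4.70. DELTA-VPE, a protease of inner seed coat layers that die early, fell 9.68-fold (-3.27 ± 0.224 SE). MUM4, which makes a mucilage sugar, rose 2.32-fold (1.22 ± 0.300 SE, adjusted p = 0.0163), a call that ended without day 3 replicate 1 (1.11) or day 6 replicate 1 (0.92), with reference transcripts (1.03) and when both channels were modelled together (1.23). The count of 5 falls was 3 without day 3 replicate 3 or day 6 replicate 4. Summed seed coat markers, of which DFR, BAN, TT4 and DELTA-VPE are members, were at 71787 to 96411 on day 3 and 10487 to 12133 on day 6, as above.

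Endosperm genes divided. Of 18 tested, 7 fell and 2 rose, with a median of -0.77, but of the 7 above the blank spots on all 8 arrays 2 fell and 2 rose. CKX2, a cytokinin-degrading enzyme of the early endosperm, had levels of 12.93, 12.60, 12.93 and 13.01 on day 3, then 6.33, 6.71, 6.76 and 6.56 on day 6. It stayed within the blank range on every day 6 array and was thus at least 32.5-fold lower (adjusted p = 1.13e-07). The imprinted MADS genes PHE1 and PHE2 fell by 3.20 and 2.96 on the log2 scale, and PHE1 exceeded the blank spots on 2 of 4 day 6 arrays. FWA, an imprinted homeodomain gene, fell 3.27-fold (-1.71 ± 0.240 SE) and MEA, an imprinted Polycomb gene above the blank spots on 1 of 4 day 6 arrays, differed by -1.59 ± 0.245 (SE, called). SWEET15, a sucrose exporter of seed coat and endosperm, had levels of 10.63, 10.46, 10.92 and 10.51 on day 3, then 12.99, 12.45, 13.05 and 12.06 on day 6. It rose 4.02-fold without overlap (2.01 ± 0.289 SE, adjusted p = 0.000948). HDG9, another imprinted homeodomain gene, rose 2.73-fold (1.45 ± 0.265 SE), a call that ended with reference transcripts (1.14). ZOU and AGL62, regulators of endosperm breakdown and cellularization, differed by -0.75 and -0.78 and were not called.

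Genes of sugar and amino acid supply moved strongly in both directions, with 4 of 10 tested higher and 3 lower, and 2 higher and none lower of the 5 above the blank spots on all 8 arrays. SWEET11, a sucrose exporter, had levels of 6.41, 6.05, 6.40 and 6.43 on day 3, then 11.85, 13.49, 11.80 and 13.09 on day 6. It exceeded the blank spots on 1 of 4 day 3 arrays and rose by a log2 difference of 6.23 ± 0.404 (SE, adjusted p = 5.13e-06). SWEET12, its closest relative, had levels of 14.25, 14.26, 14.98 and 14.42 on day 3, then 9.56, 9.20, 9.88 and 8.59 on day 6. It fell by 5.17 ± 0.326 (SE) on the log2 scale (adjusted p = 4.33e-06), the opposite direction to SWEET11, and the days did not overlap for either gene. CWINV1, which splits sucrose in the cell wall, rose by a log2 difference of 5.38 ± 0.425 (SE), with day 3 replicate 1 at 8.00 and the other day 3 arrays, within the blank range, at 6.24 to 6.46. The phloem sucrose carrier gene SUC2 rose 5.02-fold (2.33 ± 0.258 SE). SWEET4, a hexose carrier above the blank spots on 1 of 4 day 6 arrays, differed by -3.24 ± 0.548 (SE, called), and AAP8, which carries amino acids into the young seed, was at least 8.81-fold lower (adjusted p = 2.10e-06). Summed endosperm markers were at 1480 to 3959 on day 6, against 4827 to 6520 on day 3. The seed coat and embryo sums were also lower, and the part of any tissue in these changes was not tested.

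Genes that shape cotyledons and leaves rose in 7 of 13 tested cases with none lower, at a median of 1.46. TCP4, which ends cell division in growing leaves, had levels of 7.76, 8.61, 8.19 and 8.24 on day 3, then 11.03, 11.30, 11.66 and 11.27 on day 6. It rose 8.66-fold with no overlap (3.11 ± 0.263 SE, adjusted p = 2.89e-05), and its 3 reporters ranged from 2.36 to 3.84. JAG, a zinc finger gene of organ outgrowth, rose by a log2 difference of 2.99 ± 0.249 (SE) and exceeded the blank spots on 1 of 4 day 3 arrays. The growth-regulating factor gene GRF5 (AT3G13960) rose 5.22-fold (2.38 ± 0.458 SE) and FIL, which marks the lower organ side, 3.81-fold (1.93 ± 0.265 SE). With reference transcripts 4 of these 13 were called higher, beside 417 of all 17167 genes.

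Shoot apex and boundary genes went both ways, with 3 of 14 tested higher and 4 lower (1 and 3 with reference transcripts). Of the 8 above the blank spots on all 8 arrays 3 were higher and none lower. ANT, an AP2 gene of organ primordia, had levels of 10.40, 7.69, 10.16 and 10.18 on day 3, then 12.37, 12.68, 12.84 and 12.38 on day 6. It rose 7.77-fold (2.96 ± 0.518 SE, adjusted p = 0.00295), and by 2.31 without the low day 3 replicate 2. AS1, which keeps meristem genes out of organs, rose 3.02-fold (1.59 ± 0.349 SE), not called with reference transcripts (1.33), and its partner AS2 2.30-fold (1.20 ± 0.237 SE). DRN and its relative DRNL, AP2 genes of cotyledon initiation, fell. DRN had levels of 9.59, 9.48, 9.82 and 9.91 on day 3, then 7.29, 6.53, 6.37 and 6.54 on day 6, a log2 difference of -3.02 ± 0.273 (SE, adjusted p = 4.77e-05), and DRNL differed by -3.38 ± 0.283 (SE). DRN exceeded the blank spots on 1 of 4 day 6 arrays and DRNL on 2. The boundary genes CUC2 and CUC3 also fell, with log2 differences of -1.51 ± 0.301 and -1.38 ± 0.256 (SE), each above the blank spots on 1 of 4 day 6 arrays. The meristem genes WUS, STM and CLV3 differed by 0.33, 0.08 and 0.13 with adjusted p of 0.480, 0.870 and 0.805.

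At the root pole, 3 of 7 tested genes fell, 1 of them with reference transcripts, and none rose, and 2 of the 7 exceeded the blank spots on all 8 arrays. WOX5, a homeobox gene of the quiescent centre, had levels of 9.37, 8.83, 9.72 and 9.97 on day 3, then 7.63, 6.50, 6.29 and 6.88 on day 6. The days did not overlap, and the log2 difference was -2.65 ± 0.363 (SE, adjusted p = 0.000710), with 1 of 4 day 6 arrays above the blank spots. PLT1 and PLT2, AP2 factors of root identity, both fell by 1.44 on the log2 scale (adjusted p = 0.0223 and 0.00541). PLT2 exceeded the blank spots on 1 of 4 day 6 arrays. PLT1 overlapped between the days, and its call ended without day 3 replicate 1 (-1.20), 3 (-1.35) or 4 (-1.36), without day 6 replicate 3 (-1.24) or 4 (-1.47), with reference transcripts (-1.67) and when both channels were modelled together (-1.47). Without day 3 replicate 2, 2 genes of this list were called higher, and 1 without day 3 replicate 1 or day 6 replicate 1 or 2. Of the suspensor list, 3 of 8 genes were tested. SSP, which starts suspensor growth from the sperm's transcripts, fell by 1.74 on the log2 scale and exceeded the blank spots on 1 of 4 day 6 arrays. WOX8, of the basal lineage, differed by -0.85 (adjusted p = 0.0229), below the 2-fold limit, and also exceeded them on 1 of 4 day 6 arrays. WOX8 was called lower without the offset (-1.13) and with an offset of 16 (-1.02).

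Of 17 vascular genes tested, 2 rose and 1 fell, a share near that of all genes (9.65% higher and 10.3% lower). TMO5, which starts vascular cell divisions, had levels of 8.86, 9.56, 8.43 and 9.12 on day 3, then 10.60, 10.88, 11.51 and 10.98 on day 6. It rose 4.01-fold (2.00 ± 0.316 SE, adjusted p = 0.00162), and LOG3, the cytokinin-activating enzyme gene that acts with it, 2.78-fold (1.47 ± 0.330 SE), not called with reference transcripts (1.12). AHP6, an inhibitor of cytokinin signalling, fell 3.82-fold (-1.93 ± 0.260 SE, adjusted p = 0.000623). Of 6 ground tissue genes, MYB36, which directs endodermis differentiation, rose 3.97-fold (1.99 ± 0.234 SE, adjusted p = 0.000269). SCR, which sets up the endodermis, differed by -0.50 (adjusted p = 0.326). SCZ, a heat shock factor of the ground tissue, differed by 0.92 (adjusted p = 0.0628) and was called without day 3 replicate 2 (1.12) or day 6 replicate 1 (1.05).

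Of 14 epidermis and cuticle genes 2 fell and none rose, beside 10.3% of all genes lower and 9.65% higher. LTP1, a lipid transfer protein gene of the surface, fell from 16.01, 15.93, 15.87 and 15.85 to 13.75, 13.21, 12.23 and 13.03 (-2.86 ± 0.285 SE, adjusted p = 9.30e-05). ATT1, a cutin hydroxylase gene, fell 6.01-fold (-2.59 ± 0.266 SE). PDF1, which marks the outer cell layer, differed by -0.94 (adjusted p = 0.0196) and was called with array medians (-1.30) or 75th percentiles (-1.22) set equal and without day 6 replicate 2 (-1.06) or 4 (-1.03). The count of falls was 4 without day 6 replicate 2 or 4. In the stomatal lineage, 3 of 9 tested genes rose and 1 fell. The receptor genes ER (AT2G26330) and TMM rose 4.47-fold (2.16 ± 0.274 SE) and 4.21-fold (2.07 ± 0.257 SE), while ERL1, a receptor gene related to ER, fell 2.97-fold (-1.57 ± 0.335 SE, adjusted p = 0.00822).

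**Figure D5:**
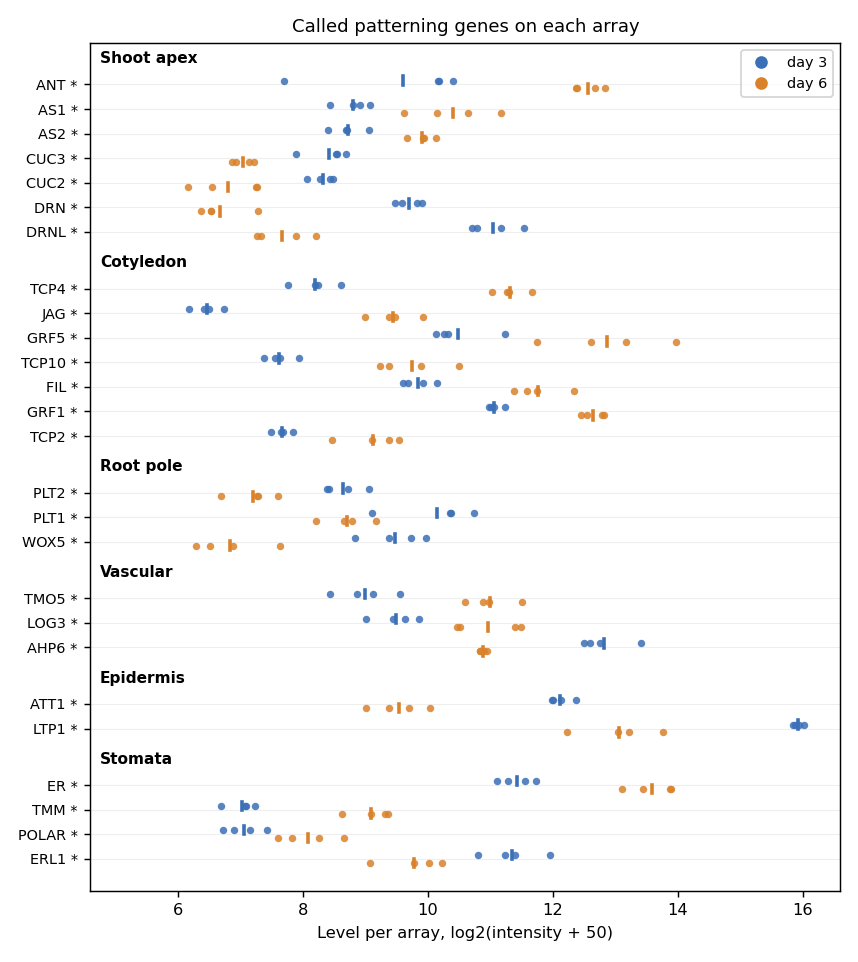
Level of each called gene of shoot apex, cotyledon, root pole, vascular, epidermis and stomatal lists on each array, as log2(intensity + 50); points are arrays and ticks are means of 4. TCP4 rises from 8.61 or less to 11.03 or more, WOX5 falls from 8.83 or more to 7.63 or less, and 1 day 3 array of ANT lies at 7.69.

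Of 17 tested genes of auxin synthesis, transport and response, 2 fell and none rose, at a median of -0.25, where 10.3% of all genes fell and 9.65% rose. The efflux carrier gene PIN3 fell from a mean of 10.15 to 8.65 (adjusted p = 0.00165) and exceeded the blank spots on 2 of 4 day 6 arrays. MP, the auxin response factor of embryo patterning, fell 2.46-fold (-1.30 ± 0.405 SE, adjusted p = 0.0426) with arrays that overlapped. Its call ended without any single array other than day 3 replicate 2 and day 6 replicate 1, where values were -1.01 to -1.29, and without the offset (-1.31). BDL, the repressor that binds MP, differed by 0.65 ± 0.283 (SE, adjusted p = 0.125). PID, a kinase that directs PIN carriers, differed by 0.87 (adjusted p = 0.0401) and was called without day 6 replicate 1 (1.04). The influx carrier gene AUX1 differed by 0.53 (adjusted p = 0.239). Without day 6 replicate 1 the list had 2 genes higher and 3 lower, and without any other single array except day 3 replicate 2 it had 1 lower.

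Of 12 tested genes of abscisic acid and gibberellin metabolism, 2 rose and 1 fell, beside 9.65% of all genes higher and 10.3% lower. GA20OX3, a late enzyme of gibberellin synthesis, rose 5.66-fold (adjusted p = 0.000245). CYP707A2, which breaks down abscisic acid, rose 2.24-fold (1.16 ± 0.257 SE, adjusted p = 0.00978), not called without day 6 replicate 1 (0.99) or with reference transcripts (0.90). AAO3, which makes abscisic acid in its last step, fell by 1.49 on the log2 scale (adjusted p = 0.00454), with 2 of 4 day 6 arrays above the blank spots. Without day 6 replicate 1 the counts were 1 higher and 2 lower.

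Cell cycle genes lay near the background. Of 22 DNA replication genes 1 rose and 3 fell, and of 24 genes of mitosis 2 rose and none fell. PCNA2, a sliding clamp of replication, fell 4.55-fold (-2.19 ± 0.646 SE, adjusted p = 0.0347), but its day 6 values of 8.11 to 11.43 overlapped those of day 3 at 11.41 to 11.84. The call ended without any single array other than day 6 replicates 2 and 4, with values from -1.60 to -2.33, and with reference transcripts (-2.61), and without day 6 replicate 2 the difference was -2.93. ORC3, an origin recognition subunit, stayed within the blank range on every day 6 array and was at least 1.16-fold lower (adjusted p = 0.000395). The D-type cyclin CYCD3;2 rose 2.13-fold (1.09 ± 0.345 SE, adjusted p = 0.0449) and the mitotic cyclin CYCB1;2 2.00-fold (1.00 ± 0.317 SE, adjusted p = 0.0453). Of mitosis genes called higher there were 0 to 3 with 1 array left out. Neither cyclin was called without day 3 replicates 1, 3 or 4, without day 6 replicates 3 or 4, without an offset or with any of the 3 other scalings. The aurora kinase AUR3, above the blank spots on 2 of 4 arrays of each day, rose by a log2 difference of 1.02 ± 0.223 (SE, adjusted p = 0.00925), not called without day 3 replicate 1 (0.96) or 4 (0.95) or day 6 replicate 3 (0.97) or with reference transcripts (0.87). The mitotic kinase CDKB1;1 differed by 0.46 (adjusted p = 0.365).

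Genes of DNA methylation and Polycomb repression had 4 of 15 lower and none higher. AGO9, an Argonaute of small RNA silencing, had levels of 12.56, 12.04, 12.51 and 12.54 on day 3, then 9.45, 10.05, 10.17 and 10.50 on day 6, a 5.18-fold fall without overlap (-2.37 ± 0.255 SE, adjusted p = 0.000152). MET1, the maintenance DNA methyltransferase, fell 2.07-fold (-1.05 ± 0.230 SE, adjusted p = 0.00932), not called without day 3 replicate 1 (-0.97), without day 6 replicate 1 or 3 (-0.99 each) or with reference transcripts (-1.41). The count of falls was 2 without day 3 replicate 1, 2 or 3 or day 6 replicate 1 or 3, and 6 without day 6 replicate 2, and it was 1 with reference transcripts. All 4 genes of myrosin cells, which store mustard oil enzymes, fell, and 1 of them with reference transcripts, but none exceeded the blank spots on all 8 arrays. MBP1, a myrosinase-binding protein gene, had levels of 13.37, 13.10, 13.11 and 13.27 on day 3, then 7.57, 7.56, 6.16 and 7.36 on day 6, a log2 difference of -6.05 ± 0.311 (SE, adjusted p = 1.26e-06) with 1 of 4 day 6 arrays above the blank spots. MBP2 fell 2.54-fold (-1.34 ± 0.256 SE), not called with reference transcripts (-1.63). The marker sums of seed coat, endosperm and embryo were all lower on day 6, and the tissue of these falls was not tested.

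Beyond the lists, the largest rise was that of AT1G62220, described in the file only as an expressed protein. It had levels of 6.53, 6.90, 7.29 and 7.03 on day 3, then 15.23, 15.44, 15.16 and 15.63 on day 6, a 344-fold rise (8.43 ± 0.241 SE, adjusted p = 2.51e-08). AT1G62000, likewise of no stated function, rose 55.7-fold (5.80 ± 0.271 SE). AT1G09750, described as an aspartyl protease, rose 162-fold (7.34 ± 0.280 SE). FTM1, a stearoyl carrier protein desaturase, rose 61.9-fold (5.95 ± 0.261 SE) and AT1G26795, related to poppy self-incompatibility proteins by the file's description, 48.4-fold (5.60 ± 0.322 SE). The cell wall gene PME5, a pectinesterase, rose 46.2-fold (5.53 ± 0.379 SE), and TBL25 was at least 30.8-fold higher, since no day 3 array was above the blank spots.

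The 12 largest falls began from bright day 3 levels, and on day 6 none of these genes exceeded the blank spots on more than 1 array. Ranking by log2 difference on a scale with a floor favours such genes, so neither trait is a separate result. The expansin gene EXPA21, whose product loosens cell walls, had levels of 15.80, 15.94, 15.87 and 15.62 on day 3, then 6.23, 5.82, 5.89 and 6.03 on day 6, at least 250.0-fold lower (adjusted p = 1.56e-08). Its neighbours by gene code, EXPA23 and EXPA22, were at least 129.9-fold and 107-fold lower. AT1G10190, of unknown function, was at least 274-fold lower, and the small cysteine-rich peptide genes SCRL10 and LCR24 at least 219-fold and 171-fold. AT2G02490, a hydroxyproline-rich protein gene, was at least 190.4-fold lower and AT2G30810, of the gibberellin-regulated family, at least 128-fold. MLP328, of the latex protein family, AT1G66870, a beta-glucanase family gene, PGL5, of a phosphogluconolactonase family, and the pectinesterase inhibitor gene AT5G46960 exceeded the blank spots on 1 of 4 day 6 arrays each. Their log2 differences were -8.43, -8.39, -8.33 and -8.21, with day 6 levels that are mostly background. The tissue of these transcripts is not given by the arrays. The summed markers of embryo, endosperm and seed coat were all lower on the day 6 arrays, but of the 8 embryo markers 1 was called higher and 2 lower. LEC1, which was not called, made up much of the embryo sum.

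Among the reference transcripts, none of 6 tested was called. UBQ10 differed by -0.58 (adjusted p = 0.259), with day 6 replicate 1 at 13.61, and GAPC1 by 0.21 (adjusted p = 0.570). The vacuolar aquaporin genes GAMMA-TIP and TIP1;2 differed by 0.20 and 0.03 and were not called.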

How the data were processed

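Arabidopsis 2-colour oligonucleotide arrays gave 1 deposited intensity per spot and channel; image software, background method and normalization are not given in the sources used here. Scanner output was lost, per the series text. From the authors' intensities of the Q0990 x Col channel, 21721 of 27462 reporters had values on all 8 arrays. An offset of 50 was added, log2 values were quantile normalized without control spots, and reporters above the 95th percentile of blank spots on at least 4 arrays were kept and averaged per gene. limma 3.58.1 (R 4.3.3) fitted day and the labelled dye, with Benjamini-Hochberg adjustment over 17167 genes, and the script was tested on simulated data. A gene within the blank range on every array of a day has a bound, written "at least". Of called genes with several reporters, 14 of 198 had reporters of opposite sign. Names came from the TAIR10.1 gene table (99.4% of codes). Members and lists (434 of 442 genes matched by name) were chosen with earlier results of these data known. The genes named were the 12 largest rises and falls, the 2 largest called rises and falls of each list, every storage, oil body and regulator gene, and the 2 brightest of lists with under 3 calls; others were picked after their values were seen. Alternatives changed scaling, offset, filter, dye, block, arrays left out, and a model of both channels (statmod 1.5.0).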

Additional observations from a re-analysis of the deposited data

Results flagged for a closer look

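Of the 114 genes named by rule, 228 sets of 4 arrays were examined for 1 array far from the other 3, by the gap to the nearest array over the whole range (above Dixon's critical value), which chance meets in about 1 set in 20. This picked out 15 values, 8 of them on day 3 replicate 2 and 5 on day 6 replicate 1. On day 3 replicate 2, LPD1 (7.02), ANT (7.69), MP (12.44), AGO9 (12.04), PME5 (6.17) and SWEET11 (6.05) lay below the other day 3 arrays, and BAN (14.86) and BZIP25 (11.27) above them. The gap was widest for LPD1, where the other arrays read 10.93 to 11.38, and for ANT, at 10.16 to 10.40. On day 6 replicate 1, OLEO3 (8.76), ROD1 (7.28), FTM1 (14.78) and ABI3 (12.23) lay below and AT5G46960 (6.96) above. OLEO3 read 15.45 to 15.62 on the other day 6 arrays and ROD1 10.66 to 11.30. The remaining values were CWINV1 on day 3 replicate 1 (8.00, others 6.24 to 6.46) and MBP1 on day 6 replicate 3 (6.16, others 7.36 to 7.57).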

How the results depend on the processing

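The 3433 calls moved by over 1.5 times in 3 of 22 alternatives: 1510 with arrays set by reference transcripts, 2012 when every array had to exceed the blank spots (fewer genes tested), and 815 when limma tested against a 2-fold change. In the gene lists 149 calls became 82 with reference transcripts and 57 against a 2-fold change. Of 88 called genes among those named by rule, 46 were called when every array had to exceed the blank spots, where dim genes leave the test. Leaving out 1 array gave 2513 to 3858 calls in all, 131 to 154 in the lists and 78 to 87 of the named genes. None of the 88 turned direction; among the uncalled genes several near 0 did, LEC2, CRU2, CRU3 and WRI1 with reference transcripts among them. In all, 61 of the 88 kept their call in every alternative that tested them. Without the offset, 27 of the 88 differences moved by over 1.5 times, because the offset shrinks dim values. The dye pairs read from the values were chosen after seeing the data (ratios of replicates 1 and 3, and of 2 and 4, correlated more closely than the labels' dyes would pair them) and gave 3584 calls; a model of both channels gave 3543. Equal replicate numbers across days had the same labelled dye. Their deviations correlated at r = -0.04 to 0.17, and those of other pairs across days at -0.29 to 0.25. Whether equal numbers share a batch was not tested. With the replicate block there were 3566 calls, 151 in the lists and 88 named. Of 806 list counts under alternatives, 678 stayed within 1.5 times. The upper tail of blank intensities reached further on day 6 (95th percentile 68.4 to 366, day 3 30.1 to 87.5), which limits detection of dim genes there. Medians of the blanks overlapped between the days, at 12.2 to 19.0 on day 6 and 9.29 to 25.1 on day 3. Close copies of a gene may share a reporter, which was not tested.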

Other observations

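Some cell wall families held genes with very large falls, while others went both ways. Families were taken from the file's descriptions or symbols with the results known, and their counts stand beside 9.65% of all genes called higher and 10.3% called lower. Counts of members above the blank spots on all 8 arrays leave out falls to dim levels, as stated for all genes. They stand beside 1273 higher and 739 lower of all 9847 such genes. Of 24 tested expansin genes, 8 were lower and 4 higher, but of the 10 above the blank spots on all 8 arrays 1 was lower and 4 higher, and with reference transcripts 7 were lower and none higher. In addition to EXPA21 to EXPA23, EXPA25 was at least 23.7-fold lower, and EXP26, above the blank spots on 2 of 4 day 6 arrays, differed by -7.12 ± 0.282 (SE). The higher count fell to 2 without some single arrays, among them day 3 replicates 1 and 2 and day 6 replicate 1. Of 71 pectinesterases and their inhibitors, 19 were lower and 9 higher, against 2 lower and 4 higher of the 24 above the blank spots on all 8 arrays. Among those higher were PME5 (5.53) and AT1G23200 (4.22). Of 53 pectate lyases and polygalacturonases, 8 were lower and 9 higher, against 0 lower and 8 higher of the 23 above the blank spots on all 8 arrays. Xyloglucan endotransglucosylases had 3 lower and 2 higher of 16, and arabinogalactan proteins 3 lower and 3 higher of 31. Of 53 glycosyl hydrolases of family 17, 10 were lower and 5 higher (3 without day 3 replicate 4), against 2 lower and 3 higher of the 31 above the blank spots on all 8 arrays, and BG1, a beta-glucanase gene, was at least 96.1-fold lower. Of 10 small cysteine-rich LCR and SCRL peptide genes, 6 were lower and 1 higher, against none lower and 1 higher of the 3 above the blank spots on all 8 arrays.

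MADS box genes had 18 of 56 lower and 2 higher, at a median of -0.53 (-0.31 with 7 bounded genes at their bound), but of the 23 above the blank spots on all 8 arrays 3 were lower and 2 higher. SHP1, a MADS gene of carpels and ovules, had levels of 12.03, 12.37, 12.18 and 11.77 on day 3 and stayed within the blank range on every day 6 array, at least 19.0-fold lower. SEP3, a floral organ gene above the blank spots on 1 of 4 day 6 arrays, differed by -3.56 ± 0.284 (SE). Glutathione S-transferase genes went both ways, with 4 of 25 higher and 7 lower, and 3 higher and 1 lower of the 12 above the blank spots on all 8 arrays. GSTU16 rose 26.7-fold (4.74 ± 0.321 SE) and GSTU20 25.9-fold (4.70 ± 0.421 SE), and GSTF6, above the blank spots on 1 of 4 day 6 arrays, differed by -5.94 ± 0.301 (SE). Of 67 lipid transfer protein genes, 15 were higher and 18 lower (11 and 7 of the 39 above the blank spots on all 8 arrays). Among them LTP3 fell 22.2-fold and AT5G38160 rose 22.5-fold. Of 222 cytosolic ribosomal protein genes, 34 were lower and 6 higher (2 higher without day 3 replicate 2, 3 without day 6 replicate 1; median -0.42), and of 30 plastid and mitochondrial ones 11 were higher and 2 lower (none lower without day 3 replicate 3; median 0.65), but with reference transcripts 2 were higher at a median of 0.28. Of 45 histone genes 6 were lower and none higher, a count of 3 without day 3 replicate 3 and with reference transcripts.

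Genes with values on 1 day only belong in no comparison. They number 3716 on day 6, 185 of them above the blank spots on all 4 arrays, and 407 on day 3, 160 of them above. Among the day 6 genes, deposited intensities were 3088 to 7675 for the albumin SESA1, 223 to 537 for the storage protein PAP85, 496 to 2231 for FAE1, which lengthens fatty acids for oil, 1432 to 3714 for the organ polarity gene YAB3, 559 to 5300 for the meristem gene KNAT1 and 1045 to 5572 for the factor gene MYB118. These were picked as bright, and other members of the same lists were dim. The albumin SESA5 (17.1 to 54.2) and the polarity gene KAN1 (65.4 to 131) exceeded the blank spots on 0 of 4 day 6 arrays. The oil body genes HSD1 (66.2 to 138) and CLO1 (45.6 to 645) exceeded them on 1 and 2. Among those of day 3, FATB, a fatty acid thioesterase gene, had 1810 to 4299 and DME, a DNA demethylase gene of the central cell, 533 to 1367.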
